A study of Mus musculus with 3 samples.

Results

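Splicing factors and heterogeneous nuclear ribonucleoproteins (hnRNPs) were described here on 3 microarrays of 4T1 cancer cells taken from different sites of tumour-bearing mice. The genes were those whose platform symbol begins with Srsf, Sfrs, Hnrnp, Hnrp, Snrp, Sf3a or Sf3b, plus U2af1, U2af2, Rbm39, Ptbp1, Ptbp2, Tra2a, Tra2b, Mbnl1, Mbnl2 and Rbfox2. This rule, which used no measured value, found 99 of the 25697 probes and 56 of the 16593 named genes, and U2af1 had no probe matched here. By role they were 9 SR proteins, 18 hnRNPs, 11 small nuclear ribonucleoprotein (snRNP) proteins, 10 SF3 and U2AF subunits and 8 other regulators.

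4T1 is a mouse mammary carcinoma line derived from a Balb/C mammary tumour. In all groups the cells were labelled with green fluorescent protein (GFP), implanted in the mammary pad of female Balb/C mice aged 10 to 12 weeks, and recovered by cell sorting. MCC cells came from metastatic loci in the lung, CCC cells from the systemic circulation and PCC cells from the primary breast tumour. Each group had 1 array, and the sources used here do not give how many mice stood behind it. There was therefore no spread between replicates, no p-value between groups and no replicate check for any difference below. All pairs of arrays share an array with another pair, so the pairs are not independent of each other.

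Introns are removed by the spliceosome, whose snRNP particles each carry a small nuclear RNA wrapped by a ring of Sm proteins. SR proteins bind exons and generally favour their inclusion, while hnRNPs coat nascent transcripts and often favour skipping, each depending on where it binds. In breast carcinoma cells such regulators are known to set the exon choices that differ between epithelial and mesenchymal states.

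Levels are given as normalised log2 intensities, a scale on which 1 unit is a 2-fold difference, and detection of a probe meant a detection p under 0.01. A gene was represented by its brightest detected probe, and levels of different genes are not compared because each probe has its own brightness. Of the 56 genes, 45 were detected on at least 1 array, 43 of them on MCC, 45 on CCC and 45 on PCC. The 11 others (Hnrnpa3, Hnrnpd, Hnrnph2, Hnrnpr, Ptbp2, Sf3a2, Sf3b1, Snrpb2, Snrpe, Srsf12 and Tra2b) were not detected on any of the 3 arrays, and nothing is said of their differences. Among these, Sf3b1, the subunit that contacts the branch point, came closest with a lowest detection p of 0.0326, followed by Sf3a2 with 0.0388.

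The arrays also differed in other respects that stand beside every result below. Of all probes, 44.0% were detected on MCC, 44.6% on CCC and 41.0% on PCC. Of 15 proliferation genes with a probe, 10 were detected on MCC, 12 on CCC and 12 on PCC, and their summed intensity, as deposited and not normalised, was 1278 on MCC, 12784 on CCC and 10296 on PCC. The median log2 difference of the 10 proliferation genes detected on both arrays was -2.52 for MCC minus PCC, with 9 of them at least 2-fold lower, and it was 0.097 over 12 genes for CCC minus PCC. Of 11 lymphocyte markers, 10 were detected on MCC, 8 on CCC and 4 on PCC, with summed intensities of 14337, 4275 and 568. Adipocyte markers were detected for 5 of 7 genes on MCC, 1 on CCC and 0 on PCC, with sums of 18279, 203 and 19.8. Macrophage markers (10 genes) were detected for 9 on MCC, 10 on CCC and 10 on PCC, with sums of 6259, 31970 and 5442. Endothelial markers were detected for 8, 8 and 6 of 9 genes (sums 9107, 3637 and 1262 on MCC, CCC and PCC), and fibroblast markers for 9, 9 and 6 of 10 (sums 10733, 14769 and 12998). Neutrophil markers were detected for 4, 5 and 5 of 9 genes in the same order (sums 2487, 3323 and 4663), red blood cell markers for 2, 1 and 2 of 2 (sums 3900, 1238 and 1330) and lung epithelium markers for 3, 1 and 1 of 7 (sums 1104, 1046 and 501). Some sums merge genes that went opposite ways. On MCC, Ltf alone gave 2356 of the neutrophil sum and Lyz2 4129 of the macrophage sum. Against PCC, Ltf was 51.5-fold higher on MCC, S100a8 and S100a9 were 28.4-fold and 29.6-fold lower, and Csf3r was within 2-fold. At least 2-fold higher and lower on MCC were 3 and 3 of 9 comparable macrophage markers and 3 and 1 of 6 fibroblast markers. Carcinoma epithelial markers were detected for 7, 4 and 3 of 7 genes (sums 4843, 8300 and 6928). Krt8, Krt18 and Cdh1 were detected on all 3 arrays, Krt7 on MCC and CCC, and Krt14, Krt19 and Krt5 on MCC alone. All these sums come from arrays whose mean probe intensity was 232 on MCC, 462 on CCC and 410 on PCC. After normalisation the median log2 difference for MCC minus PCC was 1.16 over 3 carcinoma epithelial markers and 0.86 over 6 fibroblast markers, the opposite direction to their sums. The part of these genes in the splicing factor differences was not tested, and in a sorted population fewer cells of a type and less RNA per cell cannot be told apart.

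Between metastatic and primary tumour cells, 43 of the splicing genes could be compared on detected probes. On MCC, 7 of these were lower than on PCC by 2-fold or more and 3 were higher by that much. These are 16.3% and 6.98% of the splicing genes, against 21.1% and 14.2% of all 6829 genes that could be compared in this way, so that the shares were no larger than the background under this scaling. The median difference of the splicing genes was -0.34, against -0.16 for all genes, and 32 of the 43 lay below 0, where 56.6% of all genes did. The 7 that were at least 2-fold lower were Rbfox2, Snrpd1, Hnrnpa1, Snrpb, Hnrnpll, Snrpa1 and Hnrnpk, and the 3 that were higher were Mbnl1, Srsf5 and Snrpn. The all-gene median depended on the scaling between arrays, from -0.75 with none to 0.12 with 75th percentile scaling over probes detected on all 3 arrays. The splicing median lay below it by 0.18 to 0.43 in all settings tried. Both 75th percentile scalings and no normalization differ only by a constant per array. The gap of 0.43 is therefore the same in each of them by construction and counts as 1 result. The shares past 2-fold also depended on the scaling. With no normalization, 24 splicing genes (55.8%) were at least 2-fold lower, against 40.2% of all genes, and 0 were higher, against 6.93%. With 75th percentile scaling over all probes, 11 (25.6%) were lower, against 24.0% of all genes, and 1 (2.33%) was higher, against 12.0%. The 2-fold size was lost under at least 1 of the 4 other scalings for Hnrnpk (-0.76 to -1.64), Snrpn (0.64 to 1.52), Srsf5 (0.32 to 1.20) and Mbnl1 (0.35 to 1.23), and kept under all 4 for the other 6.

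**Figure D1:**
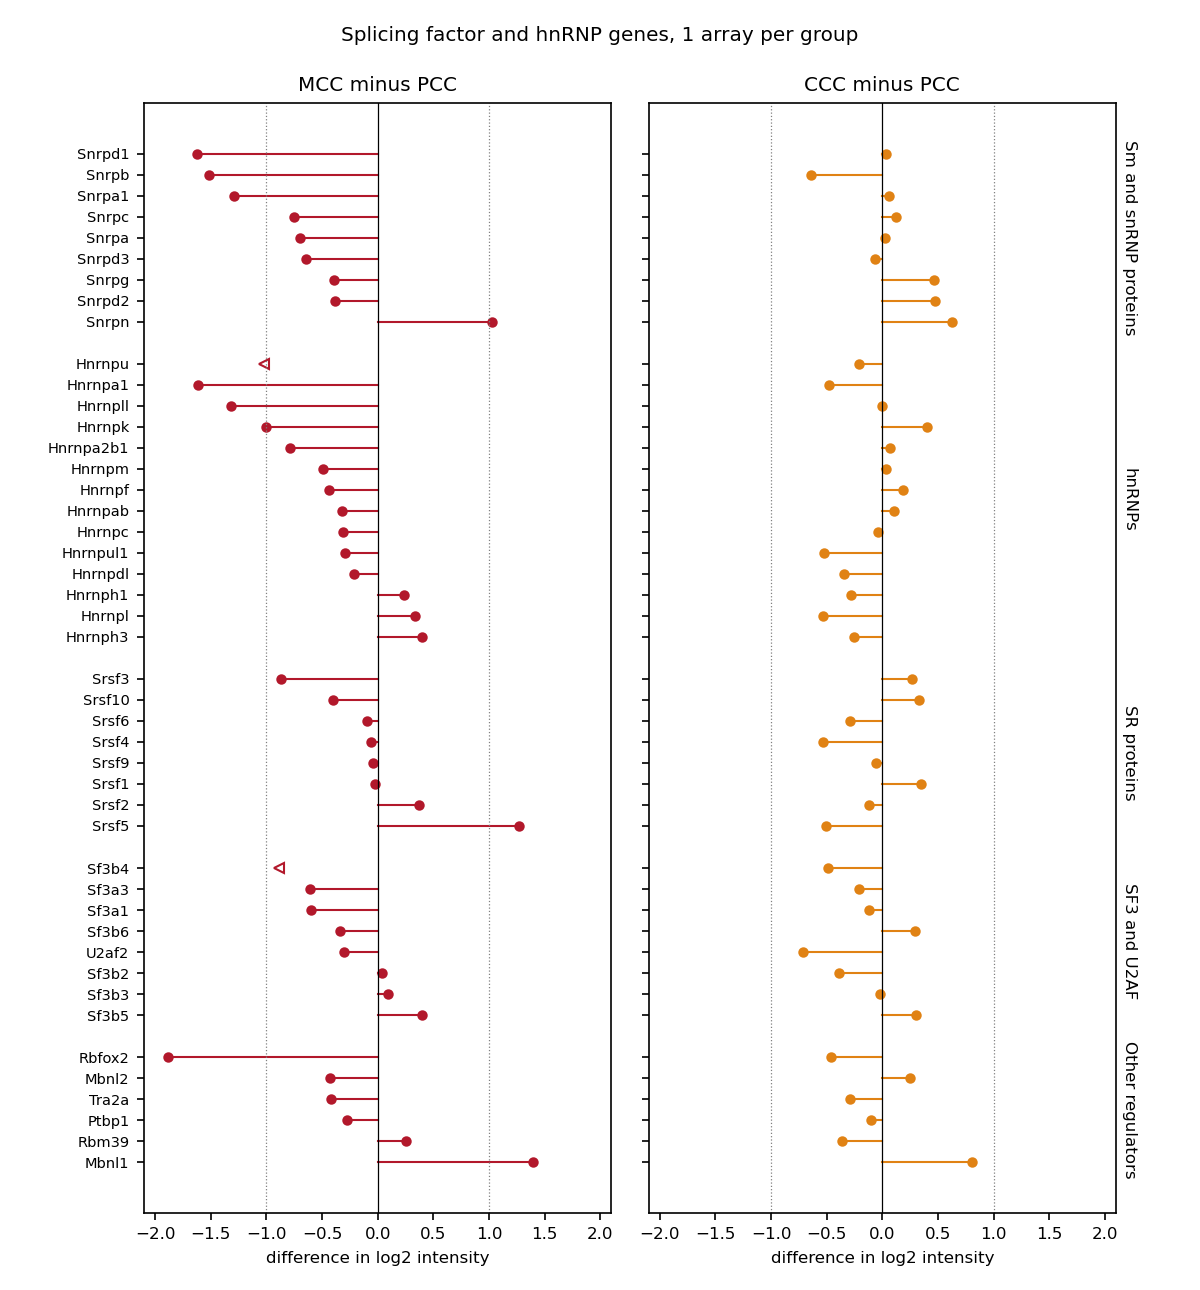
Log2 intensity differences of the 45 detected splicing genes, 1 row per gene arranged by role, for MCC minus PCC (left) and CCC minus PCC (right). Each point is the difference between 1 array and another, dotted lines mark 2-fold, and open triangles mark Hnrnpu and Sf3b4, which were not detected on MCC and have only a lower bound; the lowest and highest genes are Rbfox2 (3.69-fold lower) and Mbnl1 (2.63-fold higher) in the MCC panel, and all CCC values lie within 2-fold.

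The snRNP proteins were the role group with the lowest median, -0.69 for MCC minus PCC over 9 genes, of which 8 lay below 0 and 3 were at least 2-fold lower. With no normalization the snRNP median was -1.42. Snrpd1, an Sm ring protein, had a log2 intensity of 9.74 on MCC, 11.40 on CCC and 11.36 on PCC. MCC stood apart from the other arrays, 3.08-fold lower than PCC, and a second Snrpd1 probe gave 9.07, 10.99 and 10.99 on MCC, CCC and PCC. Snrpb, which encodes the Sm B proteins, had 10.77 on MCC, 11.64 on CCC and 12.29 on PCC and was 2.86-fold lower on MCC than on PCC. Its second probe kept that order with 8.61, 9.48 and 10.02. Snrpa1, a protein particular to the U2 snRNP, had 8.70 on MCC, 10.05 on CCC and 9.99 on PCC, 2.44-fold lower on MCC than on PCC. CCC and PCC lay close together for this gene, and MCC lay below both. The remaining Sm proteins were lower by less than 2-fold: Snrpd3 by a log2 difference of -0.64, Snrpg by -0.39 and Snrpd2 by -0.38. Snrpa and Snrpc, which belong to the U1 snRNP that reads the upstream splice site, differed by -0.69 and -0.76, and the second Snrpa probe by -0.14.

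The exception was Snrpn, an imprinted gene best known from brain that encodes a close copy of the Sm B proteins. Its log2 intensity was 7.67 on MCC, 7.27 on CCC and 6.65 on PCC, 2.03-fold higher on MCC than on PCC. Snrpb and Snrpn had opposite orders over the 3 arrays, except that with no normalization Snrpn was lower on MCC than on CCC (-0.37). The proteins are near-identical paralogs, and how far each probe reads the other transcript was not tested.

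Among hnRNPs, 13 could be compared between MCC and PCC, with a median of -0.32, and 10 lay below 0. The median was -0.87 with 75th percentile scaling and -1.37 with no normalization. Hnrnpa1, an abundant shuttling protein that often represses exon inclusion, had 9.12 on MCC, 10.26 on CCC and 10.74 on PCC. It was 3.06-fold lower on MCC than on PCC, and CCC lay between them. A dimmer Hnrnpa1 probe was not detected on MCC (detection p 0.0489) and had 6.16 on CCC and 6.09 on PCC. Hnrnpll, known for exon skipping of the leukocyte antigen CD45 in activated lymphocytes, had 8.47 on MCC, 9.78 on CCC and 9.78 on PCC. It was 2.49-fold lower on MCC than on PCC, on the array with the highest lymphocyte marker sum, and its second probe gave 7.20, 8.88 and 8.92 on MCC, CCC and PCC. Hnrnpk, which binds C-rich RNA, had 8.36 on MCC, 9.76 on CCC and 9.36 on PCC, 2.005-fold lower on MCC than on PCC. Its second probe had 7.07, 7.05 and 7.46, a difference of only -0.40, so the 2-fold size of Hnrnpk rests on 1 of its 2 detected probes.

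Hnrnpu, a large protein that also binds chromatin, was not detected on MCC, where its detection p of 0.01003 fell just outside the threshold. The log2 intensities on the arrays that detected it were 6.41 on CCC and 6.62 on PCC. Under the reported scaling it was at least 2.04-fold lower on MCC than on PCC. This bound and those given below for other genes were not recomputed under the other scalings. Hnrnpa2b1, a close relative of Hnrnpa1, was lower on MCC by -0.79, with its second probe at -0.66. Hnrnpm, which favours skipping of epithelial exons, differed by -0.49, and its other probes by -0.13 and -0.15. Hnrnpc, which binds U-rich tracts, differed by -0.32, or -0.74 on its second probe, and Hnrnpab by -0.32. The highest hnRNPs were Hnrnph3 at 0.40 and Hnrnpl, which binds CA repeats, at 0.33, both under 2-fold, and Hnrnpl turned negative under 2 other scalings.

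**Figure D2:**
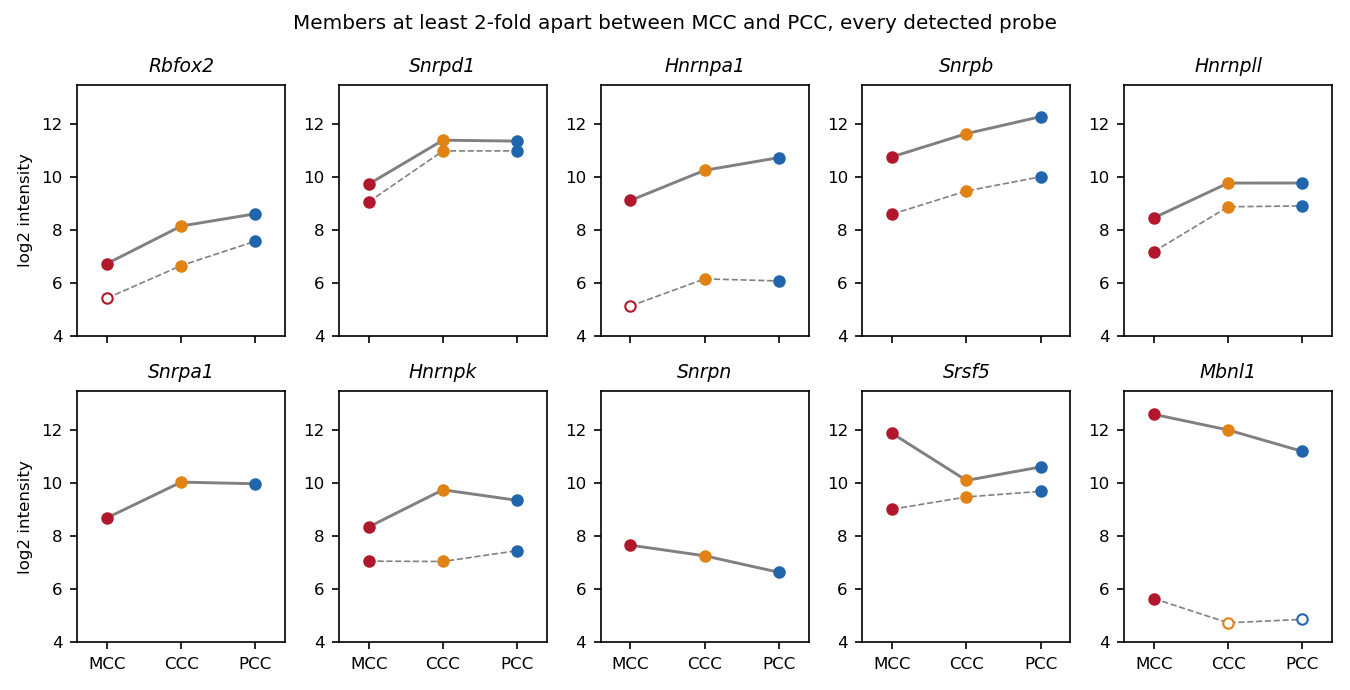
Normalised log2 intensity on MCC, CCC and PCC of the 10 splicing genes at least 2-fold apart between MCC and PCC. Solid lines join the probe that stands for the gene, dashed lines other detected probes, and open symbols a probe not detected on that array; MCC is lowest for 7 genes and highest for Mbnl1, Srsf5 and Snrpn, while the second Srsf5 probe runs the other way.

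The SR proteins as a group lay near 0, with a median of -0.050 over 8 genes for MCC minus PCC, or -0.96 with no normalization between arrays. Srsf1, the archetypal SR protein and a known oncoprotein, had 12.12 on MCC, 12.49 on CCC and 12.14 on PCC. Srsf9 had 11.36, 11.35 and 11.41 on MCC, CCC and PCC, Srsf6 had 10.55, 10.36 and 10.65, and Srsf4 had 10.34, 9.87 and 10.40. Under the reported scaling, these 4 genes were within 0.10 of equal between MCC and PCC on the probe that stands for each. The second Srsf1 probe gave 0.17. With 75th percentile scaling the 4 genes ran from -0.50 (Srsf9) to -0.41 (Srsf4), or -0.12 to -0.027 over probes detected on all 3 arrays. In the authors' second deposited table they ran from -0.29 (Srsf9) to -0.21 (Srsf4). With no normalization between arrays, Srsf4 was the highest of them at -0.90. Srsf2, which also sits in nuclear speckles, gave a difference of 0.37 that turned negative under 2 of 4 other scalings, and 0.013 on its second probe. Srsf3, the smallest SR protein, had 7.22 on MCC, 8.35 on CCC and 8.08 on PCC. It was lower on MCC than on PCC by -0.87 and on its second probe by -0.74, and MCC was 2.19-fold lower than CCC.

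Srsf5 was the SR protein with the largest difference, and its probes went in opposite directions. The brighter probe had 11.89 on MCC, 10.11 on CCC and 10.62 on PCC, 2.405-fold higher on MCC than on PCC. The dimmer probe had 9.03 on MCC, 9.49 on CCC and 9.70 on PCC, a difference of -0.67. The platform annotation ties the 2 probes to different RefSeq transcripts of the gene, and a direction for Srsf5 as a whole is not given.

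The SF3 complexes belong to the U2 snRNP and hold it at the branch point, and U2AF binds the tract before the downstream splice site. Of their subunits, 7 could be compared between MCC and PCC, with a median of -0.31 and none past 2-fold. Sf3a1 had 9.76 on MCC, 10.23 on CCC and 10.36 on PCC, and Sf3a3 had 10.61, 11.00 and 11.21. Both were lower on MCC than on PCC by -0.60. Sf3b2, Sf3b3 and Sf3b5 differed by 0.036, 0.093 and 0.40, and Sf3b6, whose detection p on MCC was 0.00752, by -0.34, and each of these 4 signs turned under at least 2 of the 4 other scalings. U2af2 had 8.17 on MCC, 7.76 on CCC and 8.48 on PCC, so that CCC was the lowest array. Sf3b4 was not detected on MCC (detection p 0.0789), where it was at least 1.84-fold lower than on PCC, and it had 5.99 on CCC and 6.48 on PCC.

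The other regulators held the lowest and the highest of all 43 values. Rbfox2, a regulator of exons that differ between epithelial and mesenchymal cells, had 6.74 on MCC, 8.16 on CCC and 8.62 on PCC. It was 3.69-fold lower on MCC than on PCC, and its second probe, not detected on MCC (detection p 0.0138), had 6.67 on CCC and 7.58 on PCC. Mbnl1, the muscleblind protein sequestered by expanded repeats in myotonic dystrophy, had 12.61 on MCC, 12.02 on CCC and 11.21 on PCC. It was 2.63-fold higher on MCC and 1.75-fold higher on CCC than on PCC. Its paralog Mbnl2 did not share this order, with 11.04 on MCC, 11.71 on CCC and 11.47 on PCC. Ptbp1, a repressor that binds pyrimidine tracts, differed by -0.27 between MCC and PCC, Tra2a by -0.42 and Rbm39 by 0.25, or by -0.28 with no normalization between arrays.

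Promoter sequences are shown for the genes at least 2-fold apart between MCC and PCC that have exactly 1 entry in the RefSeq promoter table (build GRCm38.p6), so that a reader can see what lies upstream of these genes. Each runs 5′ to 3′ on the gene's strand from 250 bases before to 50 after the start. Capitals mark matches, on either strand, to CCAAT, to the GC box GGGCGG or to the ETS motif CCGGAAG. The Hnrnpa1 promoter lies at chr15:103240147-103240446 on the plus strand, that of Snrpa1 at chr7:66060086-66060385 on the plus strand, that of Hnrnpk at chr13:58402068-58402367 on the minus strand and that of Srsf5 at chr12:80945249-80945548 on the plus strand.
Hnrnpa1: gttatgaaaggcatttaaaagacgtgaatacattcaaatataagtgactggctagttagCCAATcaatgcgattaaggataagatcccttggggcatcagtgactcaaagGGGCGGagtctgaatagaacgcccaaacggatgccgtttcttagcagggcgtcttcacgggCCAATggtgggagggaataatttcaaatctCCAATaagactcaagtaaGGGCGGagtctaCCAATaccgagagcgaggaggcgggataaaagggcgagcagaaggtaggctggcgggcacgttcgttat
Snrpa1: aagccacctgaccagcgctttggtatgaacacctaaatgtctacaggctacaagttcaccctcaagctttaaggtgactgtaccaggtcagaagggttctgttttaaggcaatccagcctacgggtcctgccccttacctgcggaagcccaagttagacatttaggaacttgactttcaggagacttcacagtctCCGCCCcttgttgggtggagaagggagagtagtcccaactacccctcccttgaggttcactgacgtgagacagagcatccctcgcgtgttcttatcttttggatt
Hnrnpk: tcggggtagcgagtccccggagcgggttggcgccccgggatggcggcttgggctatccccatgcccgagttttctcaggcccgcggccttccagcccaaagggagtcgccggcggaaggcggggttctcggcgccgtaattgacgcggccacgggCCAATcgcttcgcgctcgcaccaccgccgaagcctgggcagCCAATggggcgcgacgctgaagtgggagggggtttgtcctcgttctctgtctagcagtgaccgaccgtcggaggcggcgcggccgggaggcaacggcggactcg
Srsf5: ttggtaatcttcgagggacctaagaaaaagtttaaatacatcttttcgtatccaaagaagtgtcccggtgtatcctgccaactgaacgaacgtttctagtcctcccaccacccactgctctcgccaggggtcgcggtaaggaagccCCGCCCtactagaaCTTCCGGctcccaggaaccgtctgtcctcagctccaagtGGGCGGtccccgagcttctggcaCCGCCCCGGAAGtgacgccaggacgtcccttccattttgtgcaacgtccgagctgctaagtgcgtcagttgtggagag
Hnrnpa1 held 4 CCAAT matches and 2 GC boxes, Hnrnpk 2 CCAAT matches, Snrpa1 1 GC box, and Srsf5 3 GC boxes and 2 ETS motifs, a GC box and an ETS motif of which overlap. Of the 45 detected splicing genes, 38 matched the table, with 55 promoters. CCAAT was present in 50.9% of these promoters, against 37.6% of the 9472 promoters of detected genes and 37.4% of all 32851 promoters. The GC box was in 61.8%, against 61.0% and 35.7%, and the ETS motif in 25.5%, against 16.7% and 8.86%. CACGTG was in 10.9%, against 9.69% and 7.15%, and TATAAA in 14.5%, against 7.71% and 13.6%. These matches are a description of letters in a window and were not tied to any difference between arrays.

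Between circulating and primary tumour cells, 45 splicing genes could be compared, and 0 lay past 2-fold in either direction. Of the 7286 genes that both of these arrays detected, 4.95% were 2-fold higher or more on CCC and 3.68% 2-fold lower or more. At a mean log2 intensity under 8 the lower share was 5.36%, at 10 to 12 it was 1.98% and at 12 or more 0.76%. These bins held 11, 22 and 6 of the splicing genes. The median difference was -0.056 for the splicing genes and -0.10 for all genes, which became 0.10 and 0.13 with no normalization, with 26 of the 45 below 0 against 59.4% of all genes. The values ran from -0.71 for U2af2 to 0.81 for Mbnl1. After U2af2, the lowest were Snrpb at -0.64, Hnrnpl at -0.54, Srsf4 and Hnrnpul1 at -0.53 and Srsf5 at -0.51. After Mbnl1, the highest were Snrpn at 0.62, Snrpd2 at 0.48, Snrpg at 0.47, Hnrnpk at 0.40 and Srsf1 at 0.34, but the second Hnrnpk probe gave -0.41. Role group medians lay between -0.20 for the other regulators and 0.063 for the snRNP proteins, and the snRNP median was -0.065 under 75th percentile scaling.

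The comparison of metastatic with circulating cells gave 7 of 43 splicing genes at least 2-fold lower on MCC and 1, Srsf5, at least 2-fold higher. Among all 7313 comparable genes, 16.6% were at least 2-fold lower and 17.3% at least 2-fold higher. There were 11 lower splicing genes (25.6%) with 75th percentile scaling and in the authors' second table, against 17.6% and 17.4% of all genes, and with no normalization 27 (62.8%), against 43.3%. The median difference was -0.40 for the splicing genes and 0.011 for all genes, and 26 of the 43 lay below 0 against 49.4% of all genes. The lower genes were Snrpd1 (3.15-fold), Rbfox2 (2.67-fold), Hnrnpk (2.64-fold), Snrpa1 (2.55-fold), Hnrnpll (2.49-fold), Hnrnpa1 (2.20-fold) and Srsf3 (2.19-fold). The second Hnrnpk probe gave 0.012, and the second Srsf5 probe -0.46, against a 3.42-fold higher level on MCC from the first. The snRNP median was -0.86 and the hnRNP median -0.43, while the SR and the SF3 and U2AF medians were both 0.10 and turned negative under 3 of the 4 other scalings. Hnrnpu and Sf3b4 were at least 1.76-fold and 1.31-fold lower on MCC than on CCC.

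Among the 43 splicing genes detected on all 3 arrays, MCC gave the lowest level for 26 (60.5%), CCC for 14 and PCC for 3. Over all 6753 such genes, MCC was lowest for 47.1%, CCC for 28.6% and PCC for 24.3%. MCC gave the highest level for 11 splicing genes (25.6%), CCC for 16 (37.2%) and PCC for 16 (37.2%). Over all such genes, MCC was highest for 37.9%, CCC for 22.9% and PCC for 39.2%. These orders were counted under the reported scaling only. With no normalization, 39 of the 43 splicing genes lay below 0 for MCC minus PCC and 41 for MCC minus CCC. By mean log2 intensity, the median for MCC minus PCC was -0.34 over 9 splicing genes under 8, -0.85 over 6 genes of 8 to 10, -0.33 over 22 genes of 10 to 12 and -0.17 over 6 genes of 12 or more. The medians over all genes in these bins were -0.20, -0.13, -0.15 and -0.17.

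**Figure D3:**
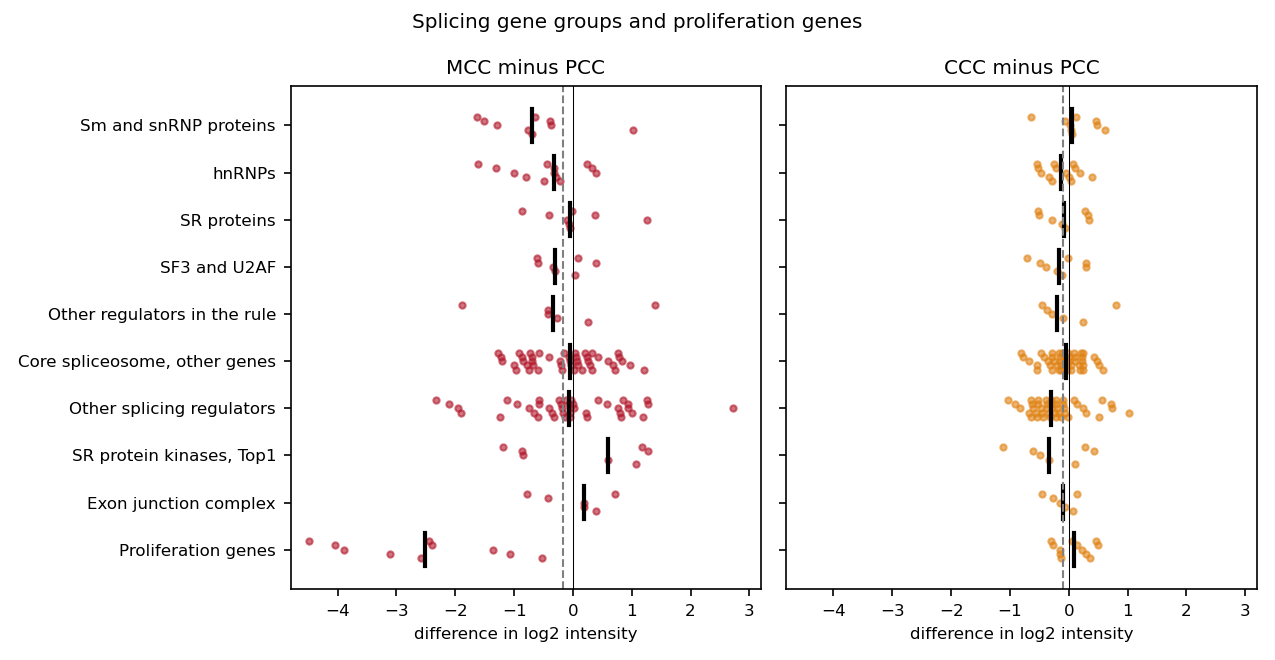
Log2 intensity differences of single genes by role group and by list, for MCC minus PCC and CCC minus PCC, with a black bar at each median and a dashed grey line at the median of all genes. The snRNP proteins have the lowest splicing gene median for MCC minus PCC (-0.69), and the proliferation list lies lower still (-2.52).

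Probes of the same gene gave a measure of how far a value depends on the probe. For MCC minus PCC, 16 splicing genes had several probes detected on both arrays, and in 3 (Hnrnph1, Srsf10 and Srsf5) the probes lay over 1 apart. Over all genes this was so for 202 of 1560 (12.9%), and the standard deviation within genes was 0.43. For CCC minus PCC it was 0 of 19 splicing genes and 2.30% of all genes, with a within-gene standard deviation of 0.26. Hnrnph1, which binds G-runs, had 3 bright probes at 0.24, 0.055 and 0.31 and 2 dim probes at -1.37 and -1.20 for MCC minus PCC, and the first of these turned negative under 3 of the 4 other scalings. Srsf10 had -0.40 on the probe that stands for it and 0.60 on another, which the platform annotation ties to a different RefSeq transcript. On CCC minus PCC the same Srsf10 probes gave 0.33 and 0.26.

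**Figure D4:**
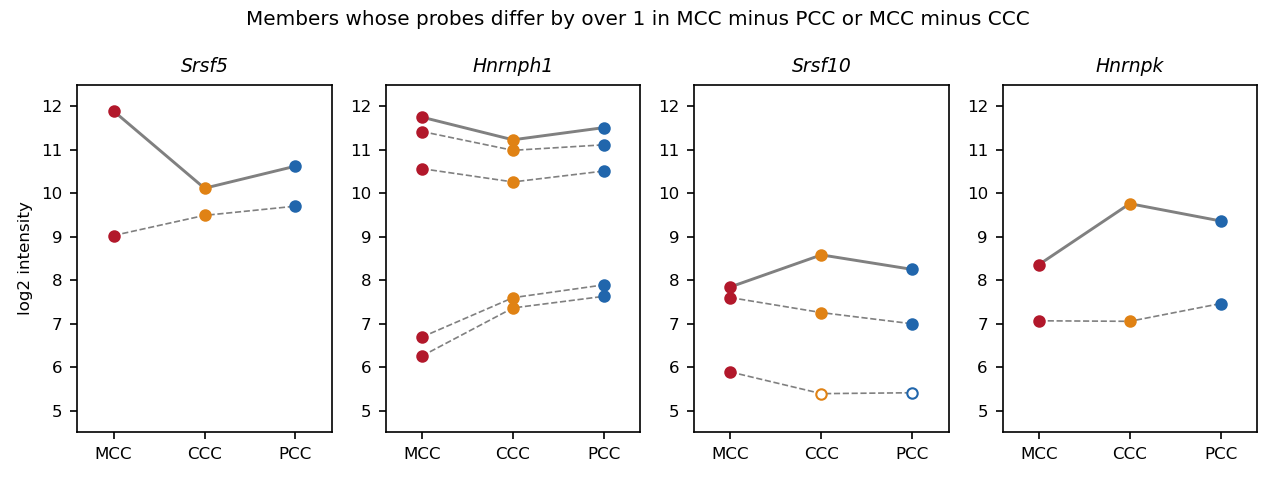
Normalised log2 intensity on MCC, CCC and PCC of every detected probe of Srsf5, Hnrnph1, Srsf10 and Hnrnpk. Solid lines are the probe that stands for the gene, dashed lines its other probes, and open symbols values not detected; for Srsf5 the brighter probe is highest on MCC (11.89) and the dimmer one lowest there (9.03).

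The wider splicing machinery was read from lists outside the naming rule. Of 45 other core spliceosome genes comparable between MCC and PCC, 4 (8.89%) were at least 2-fold lower and 1 (2.22%) higher, below the 21.1% and 14.2% of all genes, with a median of -0.052 that ran from -0.83 to 0.043 over the other scalings. The lower ones were Snrnp27 (2.41-fold), Lsm3 (2.33-fold), Lsm8 (2.30-fold) and Bud31 (2.01-fold), and the higher one was Prpf38b (2.32-fold). Snrnp27 and Bud31 did not reach 2-fold with 75th percentile scaling over probes detected on all 3 arrays (-0.81 and -0.86). Prpf38b did not with that scaling over all probes (0.93) or with no normalization (0.43). For CCC minus PCC, 0 of 45 passed 2-fold in either direction and the median was -0.048. All 6 exon junction complex genes with a probe were detected, and 0 passed 2-fold, with medians of 0.19 for MCC minus PCC and -0.10 for CCC minus PCC, of which the first turned negative under 3 of the 4 other scalings and the second positive with no normalization.

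Kinases of SR proteins load and release these proteins by phosphorylation. Their list, which also held Top1 and no detected importer, had a median of 0.59 over 7 genes for MCC minus PCC. With no normalization between arrays this median was -0.38, where the all-gene median was -0.75. Srpk1 had 10.96 on MCC, 9.96 on CCC and 9.68 on PCC and was 2.43-fold higher on MCC than on PCC. The nuclear kinases Clk3 and Clk2 were 2.24-fold and 2.09-fold higher on MCC than on PCC. Srpk1, Clk3 and Clk2 did not reach 2-fold under 75th percentile scaling (0.88, 0.78 and 0.79) and with no normalization (0.38, 0.29 and 0.29). Srpk2 went the other way, with 7.93 on MCC, 8.01 on CCC and 9.13 on PCC, 2.29-fold lower on MCC and 2.16-fold lower on CCC than on PCC. Srpk3, known from striated muscle, was not detected on PCC and was at least 18.4-fold higher on MCC. The median for CCC minus PCC was -0.34.

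Of 43 other splicing regulators, 4 (9.30%) were at least 2-fold higher and 6 (14.0%) at least 2-fold lower on MCC than on PCC. Both shares were below the 14.2% and 21.1% of all genes under the reported scaling. The median was -0.061, which became 0.13 with 75th percentile scaling over probes detected on all 3 arrays. Among genes detected on both arrays, Rbm38, an RNA-binding target of p53, was 6.62-fold higher, followed by Luc7l3 (2.42-fold), Cirbp (2.39-fold) and Srrm2 (2.29-fold). Luc7l3 and Srrm2 did not reach 2-fold under 75th percentile scaling (0.72 and 0.74) or in the second table (0.92 and 0.94). With no normalization, Luc7l3, Cirbp and Srrm2 did not (0.22, 0.67 and 0.25). Another 4 genes of this list were detected on MCC but not PCC, and 1 on PCC but not MCC. Of these, Esrp1 was at least 21.0-fold higher on MCC, and Celf4, the 1 detected on PCC, at least 3.56-fold lower. Celf1, which acts against muscleblind proteins on many exons, had 7.27 on MCC, 9.27 on CCC and 9.60 on PCC, 5.02-fold lower on MCC than on PCC. Fubp3 (4.31-fold), Syncrip (3.86-fold), Nono (3.74-fold), Rbm3 (2.36-fold) and Ilf2 (2.18-fold) were lower as well. For CCC minus PCC, 1 of 44 (2.27%) passed 2-fold in each direction, against 4.95% of all genes higher and 3.68% lower. These were Rbm47 at 2.04-fold higher and Luc7l2 at 2.04-fold lower, and the median was -0.29. Rbm47 did not reach 2-fold with 75th percentile scaling (0.98). Luc7l2 did not with that scaling over probes detected on all 3 arrays (-0.996), with no normalization (-0.82) or in the second table (-0.93).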

How the data were processed

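RNA of sorted 4T1 cells was hybridised to Illumina mouse Ref8 BeadChips, 1 array per group. The probe intensities are those the authors deposited, which per the submitters' processing notes came from GenomeStudio (its version is not stated there), with a deposited detection p-value per probe. Background had been subtracted, since 24.0% to 28.3% of the deposited intensities on an array lie below 0. The authors' second deposited table of intensities is a straight line of each array's values, with slopes of 1.53 (MCC), 0.865 (CCC) and 0.926 (PCC), offsets of 9.62, 10.3 and 27.0 and column medians of 35.1, 32.0 and 42.9. It is linear and its genes are not centred, and no source used here names the method behind these lines.

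Arrays were background-corrected and quantile-normalised with neqc (limma 3.58.1, R 4.3.3; offset 16, negative controls inferred from the detection p-values) and taken to log2. Counts, motif searches and figures were made in Python 3.11.15 (numpy 2.4.6, pandas 2.3.3, matplotlib 3.10.9). The platform annotation gave a single gene symbol for 23978 of 25697 probes and left 1719 unnamed here, and no probe had more than 1. Gene IDs linked 23962 probes to current mouse symbols.

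A gene was represented by its brightest detected probe. Counts past a fixed size of 2-fold cover genes that both compared arrays detected. Where only 1 of them did, the fold is a lower bound, taken against whichever is higher on the other array: the dimmest detected log2 intensity or the probe's own value. Such bounds hold for the reported scaling only. With 1 array per group, the number of arrays is what limits precision, and no test between groups was possible. The counting step was tested on simulated data.

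The splicing genes and the 14 lists (253 genes) were chosen with earlier results of these data known. The text names, per role group and for MCC minus PCC and CCC minus PCC, the 3 highest and 3 lowest comparable genes, genes detected on some arrays, genes whose probes lie over 1 apart and a fixed set. Other genes are named as members of a list past 2-fold.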

Additional observations from a re-analysis of the deposited data

How the results depend on the processing

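No paired analysis was possible because each group has 1 array. All 10 genes at least 2-fold apart between MCC and PCC kept their sign under the 4 other scalings tried (75th percentile scaling, the same over probes detected on all 3 arrays, no normalization between arrays, and the second deposited table). The scaling over probes detected on all 3 arrays and the medians by role group were added after the data were seen.

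With 75th percentile scaling, 11 splicing genes were at least 2-fold lower and 1 higher for MCC minus PCC, and 11 lower for MCC minus CCC, where the all-gene median was -0.040. For CCC minus PCC the snRNP median was then -0.065. For MCC minus CCC the SR median was -0.19 and the SF3 and U2AF median -0.21. Over probes detected on all 3 arrays, the all-gene median for MCC minus PCC was 0.12. For MCC minus CCC, 2 splicing genes (4.65%) were higher with that scaling, against 22.2% of all genes. With no normalization, 24 splicing genes were lower and 0 higher for MCC minus PCC (medians -1.18 and, for all genes, -0.75), and 27 lower and 0 higher for MCC minus CCC (medians -1.41 and -0.83, SR -0.98, SF3 and U2AF -0.997). Of all genes, 5.87% were higher for MCC minus CCC with no normalization. For CCC minus PCC, 1 splicing gene (2.22%) was then higher, against 7.78% of all genes. The medians of that pair were 0.10 for splicing genes, 0.13 for all genes, 0.12 for hnRNPs and 0.059 for SR proteins. In the second table, 11 were lower for MCC minus CCC, with medians of -0.064 for all genes, -0.17 for SR and -0.19 for SF3 and U2AF. The all-gene median for MCC minus CCC was -0.054 over genes detected on all 3 arrays and -0.022 with the mean over probes, where 0 splicing genes were higher. It was -0.023 with every probe counted separately, where 11 splicing probes, rather than genes, were lower. For MCC minus PCC, 12 probes were lower when counted separately, some from the same gene, such as Snrpd1. For the counts by separate probes and by the mean over probes, the shares over all genes or probes are not given here. Nothing about the splicing genes is read from those counts. The SR median for MCC minus PCC was 0.015 with the mean over probes. The other probe gave -0.67 for Srsf5 in MCC minus PCC, -0.46 for Srsf5 and 0.012 for Hnrnpk in MCC minus CCC. The splicing gene median less the all-gene median for CCC minus PCC was -0.032 under the scalings by 75th percentile and none, which must give the same value. It was -0.021 with no detection filter.

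Scaling also set the split of all genes past 2-fold. For MCC minus PCC, 40.2% were higher in the reported setting, 56.7% with scaling over detected probes and 14.7% with none. For CCC minus PCC the share was 57.4% as reported and 82.4% with none, and for MCC minus CCC 51.0%, 64.7% and 11.9%. Between MCC and PCC, Hnrnph1, Hnrnpl, Hnrnpul1, Rbm39, Sf3b2, Sf3b3, Sf3b5, Sf3b6 and Srsf2 changed sign under at least 1 scaling. For the genes named, 344 recomputed MCC minus PCC values stayed within the within-gene probe standard deviation of the reported value. Another 59 moved further, and 1, of a gene at least 2-fold apart, changed sign. For MCC minus CCC these counts were 356, 46 and 2. Settings that changed only the detection filter reused the same normalised values, so many of the unmoved values there had little room to change. Without replicates, no cause of these shifts was tested.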
